A study of Mus musculus with 9 samples.

Results

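Neuropeptides and the receptors through which they act were followed in the hippocampus of mice that carry 1 mutant Braf allele. The set is a list of 42 genes, made of 18 peptide genes, 23 receptor genes and Crhbp, the gene of a protein that binds the peptide CRH. Genes were taken from the deposited table by symbol and tested where their mean over all libraries was at least 10 normalised counts. That left 37 genes of the 16196 tested in all, namely 15 peptides, 21 receptors and Crhbp. Gal, Galr1 and Avpr1b lay just under the minimum, with means of 6.99, 7.33 and 5.88, and Vipr2 and Oprm1 lay just above it, with means of 13.1 and 15.3. The peptides Trh and Prok2 were not analysed here.

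Hippocampal RNA from adult male mice of the strain C57BL/6N was sequenced in 4 Nestin;BrafKE/+ libraries and 5 Braf+/+ libraries. Nestin;BrafKE/+ mice are heterozygous for a Braf knock-in allele, KE, that Nestin-Cre recombination switches on. Nestin-Cre acts in neural stem cells, which by the paper later give rise to neurons as well as glia. The Braf+/+ mice were littermate controls with both Braf alleles intact, and the labels do not say whether they carry the Cre transgene. No group with Cre alone was measured, so Cre and the Braf allele cannot be told apart. The library names have 4 prefixes, and 2 of these were joined as series A, so that 3 series were used. By prefix alone, Braf+/+ replicates 1 and 2 have no Nestin;BrafKE/+ partner. Series A has Braf+/+ replicates 1 to 3 with Nestin;BrafKE/+ replicate 1, series B has Braf+/+ replicate 4 with Nestin;BrafKE/+ replicates 2 and 3, and series C pairs Braf+/+ replicate 5 with Nestin;BrafKE/+ replicate 4.

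Neuropeptides are cut from larger precursors inside the secretory pathway, stored in dense-core vesicles and released on strong firing, and most of them act on G protein-coupled receptors. In the hippocampus, many are made by GABAergic interneurons and label their classes, as somatostatin, neuropeptide Y, cholecystokinin and VIP do, whereas dynorphin is found mainly in dentate granule cells. ERK, the kinase at the end of the pathway that BRAF starts, phosphorylates regulators of activity-dependent transcription, and several neuropeptide genes are textbook targets of such regulation through the cAMP response element (CRE).

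Values are given in normalised counts, the unit of the deposited table, and library totals ran from 19551300 to 20091500. A log2 fold change is the difference between Nestin;BrafKE/+ and Braf+/+ in log2(value + 1), fitted by limma with genotype and name series as terms, and a positive value means higher in Nestin;BrafKE/+. A gene passed the test when its p, adjusted over all 16196 genes by the Benjamini-Hochberg method, was under 0.05. Braf itself ranged from 2144 to 2469 in Nestin;BrafKE/+ and from 2635 to 3030.0 in Braf+/+, with a log2 fold change of -0.30 (limma adjusted p = 0.0378). Total Braf RNA does not report the base change of the knock-in allele. Markers of excitatory neurons were abundant in every library, with a summed level of 123862 to 148506 in Nestin;BrafKE/+ and 113268 to 131257 in Braf+/+, and the 2 of 9 hypothalamic markers that were measured summed to 18.9 to 34.9 and 21.9 to 29.0. The choroid plexus markers were uneven, from 1385 to 24296 in Nestin;BrafKE/+ and from 4467 to 391928 in Braf+/+, with the 2 highest sums in Braf+/+ replicates 2 and 4. In bulk tissue, fewer cells of a type and less RNA per cell cannot be told apart.

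Of the 37 tested genes, 6 passed the test, 5 of them higher and 1 lower in Nestin;BrafKE/+. The peptides Npy, Grp and Cort, the receptor Prokr2 and the binding protein Crhbp rose, and the opioid peptide gene Pdyn fell. The share of 16.2% compares with 2.88% of all genes tested, and the higher and lower calls compare with 1.52% and 1.36% of all genes. The members and the further lists were chosen with earlier results of these data known. Their shares beside those of all genes are therefore descriptive only. No overlap between groups was seen for 14 genes (37.8%), 8 higher and 6 lower in Nestin;BrafKE/+, against 15.7% of all genes. An unadjusted limma p under 0.05 was found for 15 (40.5%), against 18.5% of all genes. The median absolute log2 fold change was 0.26 over the 37 genes and 0.12 over all genes, whereas the median signed change was 0.10 and 0.00033. Of 15 peptides, 4 passed (26.7%), and of 21 receptors, 1 passed (4.76%). By the other counts they were closer, with no overlap for 6 peptides (40.0%) and 7 receptors (33.3%) and median absolute log2 fold changes of 0.24 and 0.26. With a minimum mean of 50 normalised counts, 5 peptides and 3 receptors passed, and without the series term 6 and 7. In those settings 3.64% and 14% of all genes passed. As the authors had already adjusted the values for batches, the fit without the series term understates the error. The difference between peptides and receptors was not itself tested. Leaving out 1 library gave 2 members without Nestin;BrafKE/+ replicate 1 (Npy and Grp), 4 without Nestin;BrafKE/+ replicate 3 or without Braf+/+ replicate 4, and 6 or 8 otherwise. Without Nestin;BrafKE/+ replicate 1, series A has no Nestin;BrafKE/+ library, and without Braf+/+ replicate 4, series B has no Braf+/+ library. That series then gives no information on genotype, and 0.259% and 0.599% of all genes passed. Without Nestin;BrafKE/+ replicate 3 the share was 1.04%, and otherwise 1.72% to 2.29%. Leaving out either library of series C gave the same log2 fold changes.

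**Figure D1:**
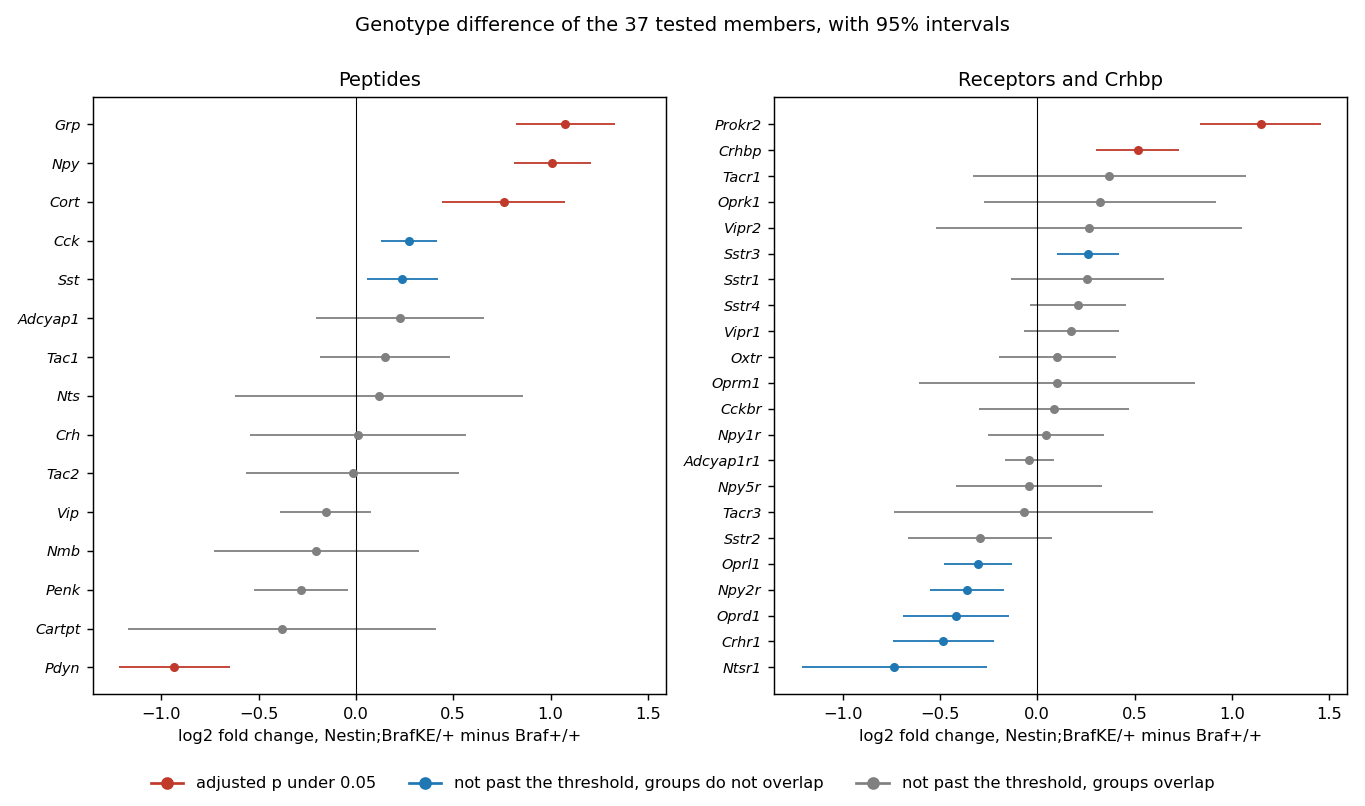
Log2 fold change (Nestin;BrafKE/+ minus Braf+/+) of the 15 peptides, and of the 21 receptors with Crhbp, each point with its 95% interval from limma. Red points passed the test, blue points did not although their groups do not overlap, and grey points have overlapping groups. Grp, Npy and Cort stand at the top of the peptides and Pdyn at the bottom, and among the receptors 5 blue points lie below 0 and Sstr3 above it.

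Npy encodes neuropeptide Y, a peptide of interneurons that dampens glutamate release. Npy was measured at 1090.3, 1194, 1020.3 and 979 in Nestin;BrafKE/+ replicates 1 to 4 and 564, 482, 535, 496 and 578 in Braf+/+ replicates 1 to 5. Every Nestin;BrafKE/+ library was above every Braf+/+ library, and the lowest Nestin;BrafKE/+ value was still well over the highest Braf+/+ value. The log2 fold change was 1.01 (SE 0.09, limma adjusted p = 0.00105), with a 95% interval of 0.81 to 1.21. Npy passed the test in all 9 fits that leave out 1 library, with the highest adjusted p, 0.0204, without Nestin;BrafKE/+ replicate 1. Npy lies at chromosome 6, 49799026 to 49806489 (GRCm39), 10.1 Mb from Braf on the same chromosome. Within 20 Mb of Braf, 7 of 207 tested genes passed (3.38%), against 2.88% of all genes. By the paper, the knock-in allele was made in embryonic stem cells of a mixed strain background. Near Braf, DNA carried along with the allele and the allele itself cannot be told apart.

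Grp encodes gastrin-releasing peptide, a bombesin-like peptide. Grp was measured at 642, 705, 665 and 680.0 in Nestin;BrafKE/+ replicates 1 to 4 and 275, 405, 304, 307 and 315 in Braf+/+ replicates 1 to 5. The groups were far apart, and Braf+/+ replicate 2 was the highest of the controls. Its log2 fold change was 1.08 (SE 0.116, limma adjusted p = 0.00193), and it passed in all 9 fits that leave out 1 library. A predicted gene overlaps Grp on the opposite strand. The other bombesin-like peptide, Nmb, did not pass, at 28 to 44.2 in Nestin;BrafKE/+ and 29.9 to 44.2 in Braf+/+ with a log2 fold change of -0.20 (95% interval -0.73 to 0.32, adjusted p = 0.697). Nmb overlaps Sec11a on the same strand, so some of its reads cannot be assigned with certainty.

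Cort encodes cortistatin, a relative of somatostatin that is made by interneurons and binds somatostatin receptors. Cort was measured at 116, 139, 127 and 119.6 in Nestin;BrafKE/+ replicates 1 to 4 and 70.5, 78, 77.7, 65.3 and 77.1 in Braf+/+ replicates 1 to 5. The groups did not overlap, and the spread within each group was small beside the gap. Its log2 fold change was 0.76 (SE 0.144, limma adjusted p = 0.021). Cort no longer passed without Nestin;BrafKE/+ replicate 1 (adjusted p = 0.0882), without Nestin;BrafKE/+ replicate 3 (0.0614) or without Braf+/+ replicate 4 (0.131). The log2 fold changes of Cort in these fits were 0.85, 0.75 and 0.62. The gene is at chromosome 4, 149209491 to 149211266 (GRCm39).

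Pdyn, the precursor of the dynorphins, which act mainly on the kappa opioid receptor, was the 1 gene of the set that passed in the other direction. Pdyn was measured at 86.3, 105, 102 and 101 in Nestin;BrafKE/+ replicates 1 to 4 and 182, 210.0, 199, 169.7 and 184 in Braf+/+ replicates 1 to 5. All Nestin;BrafKE/+ libraries were below all Braf+/+ libraries, and their highest value was well under the lowest control. Its log2 fold change was -0.93 (SE 0.129, limma adjusted p = 0.00548). The call was lost without Nestin;BrafKE/+ replicate 1 (log2 fold change -0.77, adjusted p = 0.0674) and kept in the other 8 fits. Pdyn lies at chromosome 2, 129528469 to 129541945 (GRCm39). Among the 11 markers of excitatory neurons, 4 passed (36.4%, against 2.88% of all genes), 3 of them higher. Calb1, found in granule cells and CA1 pyramidal cells, rose by 0.43 on the log2 scale (adjusted p = 0.0178), as did Wfs1 and Fibcd1, markers of CA1, by 0.61 and 0.40. Dsp, which is enriched in dentate granule cells, fell by 0.78 on the log2 scale (adjusted p = 0.0106), whereas Prox1, which defines granule cells, stood at -0.05 on that scale (adjusted p = 0.692). Over the 9 fits that leave out 1 library, Wfs1 passed in 9, Dsp in 7 and Calb1 and Fibcd1 in 6. The part of granule cell number in the Pdyn result was not tested.

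Prokr2 encodes a receptor for prokineticins. Prokr2 was measured at 174, 147, 171 and 149 in Nestin;BrafKE/+ replicates 1 to 4 and 76.5, 66, 65.7, 72.3 and 77.1 in Braf+/+ replicates 1 to 5. The groups were clearly apart and each was tight. Its log2 fold change, 1.15 (SE 0.141, limma adjusted p = 0.00324), was the largest of the 37 genes in either direction. Without Nestin;BrafKE/+ replicate 1 the log2 fold change was 1.04 and the adjusted p was 0.0569, and the other 8 fits kept the call. The gene is at chromosome 2, 132179653 to 132227368 (GRCm39).

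Crhbp encodes the protein that binds CRH outside the cell and limits its access to receptors, and it is made by interneurons in the hippocampus. Crhbp was measured at 746, 801, 754 and 646 in Nestin;BrafKE/+ replicates 1 to 4 and 489, 518, 525, 459 and 584 in Braf+/+ replicates 1 to 5. The lowest Nestin;BrafKE/+ library and the highest Braf+/+ library, both of series C, came close without overlap. Its log2 fold change was 0.52 (SE 0.0973, limma adjusted p = 0.021). Crhbp no longer passed without Nestin;BrafKE/+ replicate 1 (adjusted p = 0.132), without Nestin;BrafKE/+ replicate 3 (0.0648) or without Braf+/+ replicate 4 (0.134). The log2 fold changes of Crhbp in these fits were 0.495, 0.505 and 0.386. Its position is chromosome 13, 95567879 to 95581841 (GRCm39).

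**Figure D2:**
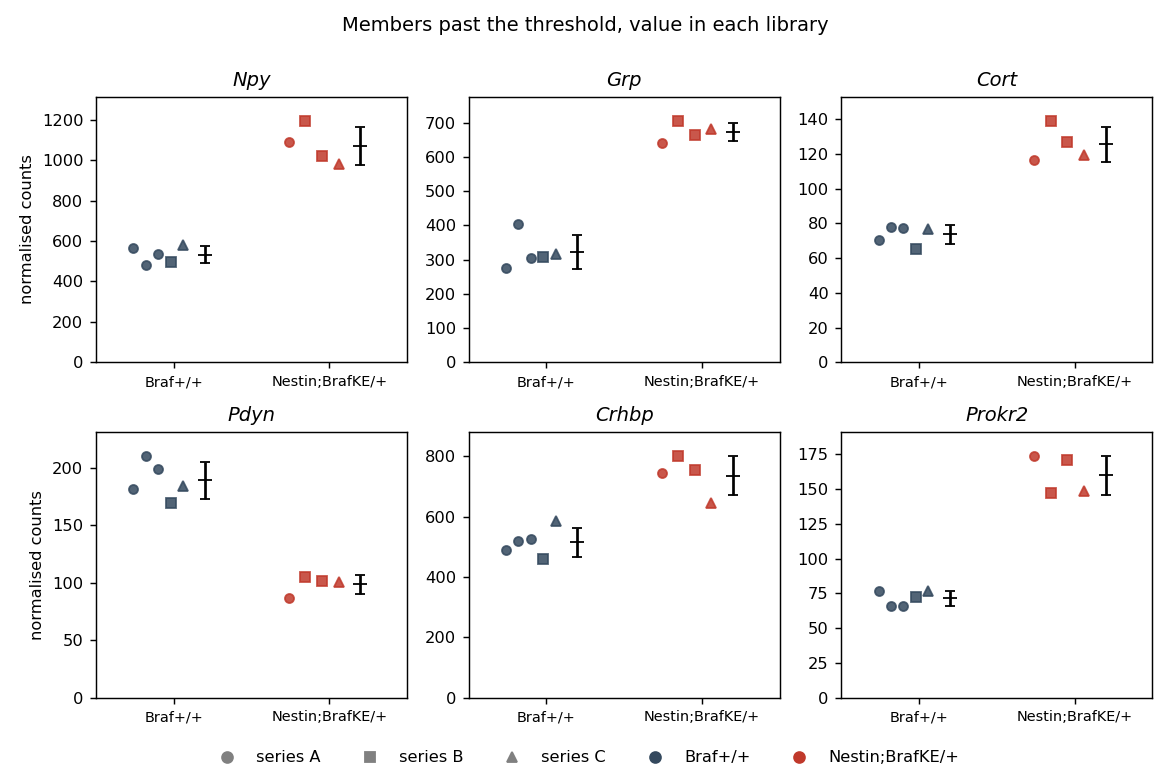
Normalised counts of the 6 genes that passed the test in each of the 9 libraries, with a separate linear axis from 0 for each gene. Colour gives the genotype, marker shape the name series, and the black bar the group mean ± SD (n = 5 for Braf+/+ and n = 4 for Nestin;BrafKE/+). The groups do not overlap in any panel, and Pdyn is lower in Nestin;BrafKE/+ where the other 5 are higher.

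In a two-sided exact permutation test, with genotype permuted over all 9 libraries, each of the 6 genes had p = 0.00794, the smallest that this test can give. With genotype permuted within name series only, the exact p was 0.0417 for each, again the smallest possible. Cck, Npy2r, Sstr3, Oprl1 and Crhr1, which did not pass in limma, had the same permutation p-values. These tests therefore do not set the 6 genes apart. Within the series, the log2 difference of Npy was 1.05 in series A, 1.15 in series B and 0.76 in series C, and that of Grp was 0.99 in series A, 1.15 in series B and 1.11 in series C. Of the 6, Crhbp varied most by series, with 0.55 in series A, 0.76 in series B and 0.14 in series C. For Pdyn the differences were -1.18 in series A, -0.71 in series B and -0.86 in series C. Where groups do not overlap the direction within each series is fixed, so only the sizes of these differences are informative.

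**Figure D3:**
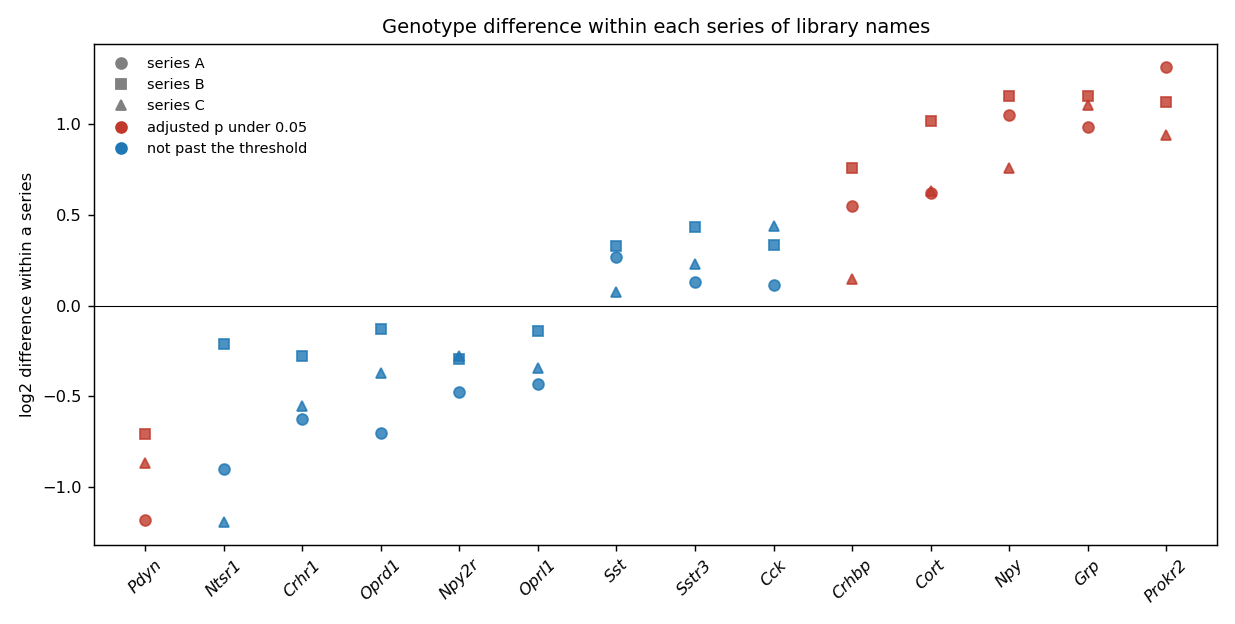
Difference of mean log2(value + 1) between genotypes within series A, B and C (marker shapes) for the 14 genes whose groups do not overlap, ordered by the fitted log2 fold change. Red genes passed the test and blue genes did not. Differences of Npy, Grp and Prokr2 are 0.76 or higher in each series, and that of Crhbp is 0.14 in series C.

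The promoters of the genes that passed are shown so that they can be read for the elements through which ERK and cAMP signals are known to act, such as ETS, SRF and CRE sites. The sequences are from RefSeq on GRCm38.p6, run from 250 bases before to 50 bases after an annotated start, and are written 5′ to 3′ on the strand of the gene. Promoters were found for 32 of the 37 tested genes and for 5 of the 6 that passed. Sst is added as a promoter with a complete CRE, and for Pdyn the start farthest upstream is given. Capitals mark the motifs found on either strand.
Npy, chr6:49822460-49822759, plus strand: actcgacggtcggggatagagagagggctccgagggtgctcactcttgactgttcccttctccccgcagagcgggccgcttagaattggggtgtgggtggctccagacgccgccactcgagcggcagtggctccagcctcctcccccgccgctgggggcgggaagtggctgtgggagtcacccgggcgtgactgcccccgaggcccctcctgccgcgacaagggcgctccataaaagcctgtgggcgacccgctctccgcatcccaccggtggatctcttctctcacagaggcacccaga
Cort, chr4:149126714-149127013, minus strand: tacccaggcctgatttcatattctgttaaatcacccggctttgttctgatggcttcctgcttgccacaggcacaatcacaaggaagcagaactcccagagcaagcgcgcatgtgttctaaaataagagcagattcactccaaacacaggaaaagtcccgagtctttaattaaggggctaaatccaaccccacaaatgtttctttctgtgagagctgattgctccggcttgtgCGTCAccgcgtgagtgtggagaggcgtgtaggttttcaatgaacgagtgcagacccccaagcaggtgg
Pdyn, chr2:129699889-129700188, minus strand: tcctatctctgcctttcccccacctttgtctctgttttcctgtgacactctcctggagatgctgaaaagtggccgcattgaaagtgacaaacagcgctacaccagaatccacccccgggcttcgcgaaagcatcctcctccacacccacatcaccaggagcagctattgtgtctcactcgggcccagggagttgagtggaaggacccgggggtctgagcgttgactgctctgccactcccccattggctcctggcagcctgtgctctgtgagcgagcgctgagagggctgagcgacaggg
Prokr2, chr2:132385398-132385697, minus strand: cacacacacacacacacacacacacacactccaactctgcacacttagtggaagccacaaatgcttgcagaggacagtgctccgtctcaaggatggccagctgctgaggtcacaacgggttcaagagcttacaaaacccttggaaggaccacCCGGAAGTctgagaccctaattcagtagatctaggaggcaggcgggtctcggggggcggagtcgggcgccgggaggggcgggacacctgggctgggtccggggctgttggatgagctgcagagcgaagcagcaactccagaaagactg
Crhbp, chr13:95444782-95445081, minus strand: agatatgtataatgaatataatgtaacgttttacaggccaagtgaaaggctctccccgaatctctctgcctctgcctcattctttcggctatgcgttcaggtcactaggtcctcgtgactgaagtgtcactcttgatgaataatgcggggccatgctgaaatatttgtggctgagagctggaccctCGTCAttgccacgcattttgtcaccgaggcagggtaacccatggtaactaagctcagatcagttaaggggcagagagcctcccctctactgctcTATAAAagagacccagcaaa
Sst, chr16:23890795-23891094, minus strand: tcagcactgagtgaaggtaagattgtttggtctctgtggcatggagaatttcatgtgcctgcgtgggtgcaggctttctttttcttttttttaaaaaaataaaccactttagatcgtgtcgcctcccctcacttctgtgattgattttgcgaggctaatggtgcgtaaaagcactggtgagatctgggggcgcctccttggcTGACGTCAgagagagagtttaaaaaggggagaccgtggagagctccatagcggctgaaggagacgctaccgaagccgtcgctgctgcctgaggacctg

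The motifs searched were the CRE (TGACGTCA), the CRE core (TGACG, which the CRE contains on both strands), AP-1 (TGACTCA or TGAGTCA), an ETS site (CCGGAAGT), an EGR1 site (GCGGGGGCG), the E-box CACGTG, the TATA box TATAAA and the SRF CArG box. Positions count from the start of transcription and give the first base of the motif as printed. The promoter of Cort has a CRE core at -18, that of Crhbp has a CRE core at -64 and TATAAA at 31, and that of Prokr2 has the ETS letters at -98. The windows of Npy and of both Pdyn starts hold none of the letters searched. The Sst promoter has the complete CRE at -48. A complete CRE was present in 3 of the 39 promoters of tested members (7.69%), those of Sst, Sstr2 and Cartpt, against 1.79% of all 32851 promoters, and none of these 3 genes passed the test. A CRE core was present in 16 of 39 (41%) against 20.8%, the E-box in 7 (17.9%) against 7.15%, AP-1 in 2 (5.13%) against 5.2%, and TATAAA in 5 (12.8%) against 13.6%. The ETS letters occurred in 1 of 39 (2.56%) against 3.89%, the EGR1 letters in 2 (5.13%) against 2.91% and the CArG box in 1 (2.56%) against 1.63%. Such a match describes the letters of the window, not a site in use.

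Compared per kilobase of exon, the peptide and receptor RNAs differed widely in level. Averaged over all libraries, Sst was highest at 1106 normalised counts per kilobase, followed by Cck at 917, the PACAP receptor Adcyap1r1 at 482 and Npy at 426. Crhbp stood at 278, Grp at 203 and Cort at 134, whereas Pdyn, at 28.5, and Prokr2, at 12.6, were in the lower part of the set. The lowest were the opioid receptors Oprm1, at 1.9, and Oprk1, at 3.33, with Vipr2 between them at 2.93. Precision varied with level. None of the 8 members with a mean from 10 to 50 normalised counts passed, where the median SE of the log2 fold change was 0.316, and 5 of the 23 with a mean from 100 to 1000 passed, where it was 0.104. In these classes 0.978% and 2.77% of all genes passed.

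A further 8 genes had groups that do not overlap and an unadjusted p under 0.05 but an adjusted p above the threshold, from 0.0526 to 0.159. Of these, 3 were above and 5 below the controls. Cck and Sst, the most abundant peptides of the set, were among them. With a minimum mean of 50 normalised counts Cck, Npy2r and Crhr1 passed as well, and without Braf+/+ replicate 3 Cck and Npy2r did. Cck, cholecystokinin, was measured at 5081, 5730.1, 5493 and 5859 in Nestin;BrafKE/+ replicates 1 to 4 and 4780.2, 4379, 4974, 4453 and 4325 in Braf+/+ replicates 1 to 5. The highest control, Braf+/+ replicate 3, was just under the lowest Nestin;BrafKE/+ value, and the log2 fold change was 0.27 (SE 0.0656, limma adjusted p = 0.0527). Sst, somatostatin, was measured at 4434, 4749, 4201 and 4135 in Nestin;BrafKE/+ replicates 1 to 4 and 3178, 4109.6, 3841, 3556 and 3923 in Braf+/+ replicates 1 to 5. Its groups were separated by a narrow gap, with Nestin;BrafKE/+ replicate 4 next to Braf+/+ replicate 2, and the log2 fold change was 0.24 (SE 0.0833, limma adjusted p = 0.159).

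The receptor Npy2r, which on axon terminals mediates the effect of neuropeptide Y on release, was measured at 765, 888, 769 and 838 in Nestin;BrafKE/+ replicates 1 to 4 and 1190.3, 1079, 942, 1013 and 1015 in Braf+/+ replicates 1 to 5. All Nestin;BrafKE/+ values were below all control values, opposite in sign to its ligand, and the log2 fold change was -0.36 (SE 0.0866, limma adjusted p = 0.0526). Npy1r and Npy5r, the other receptors of the set for neuropeptide Y, had overlapping groups and log2 fold changes of 0.05 (95% interval -0.25 to 0.34) and -0.04 (95% interval -0.42 to 0.33). Thus in the neuropeptide Y system 1 gene of 4 passed (25.0%, against 2.88% of all genes), the ligand.

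Crhr1, the main CRH receptor of the brain, was measured at 122, 135, 142 and 129 in Nestin;BrafKE/+ replicates 1 to 4 and 179, 184, 205, 168 and 189 in Braf+/+ replicates 1 to 5. The groups were separated, with Nestin;BrafKE/+ lower, and the log2 fold change was -0.48 (SE 0.118, limma adjusted p = 0.0562). Crh itself ranged from 28 to 46.2 in Nestin;BrafKE/+ and 25 to 41.2 in Braf+/+ with a log2 fold change of 0.01 and a wide 95% interval of -0.55 to 0.57. In this system the ligand, its receptor and its binding protein therefore had different signs or sizes, and only Crhbp passed.

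Among the opioid genes, 4 of 6 had negative log2 fold changes, and the 3 with groups that do not overlap were all lower in Nestin;BrafKE/+, Pdyn among them. Oprl1, the receptor for nociceptin, was measured at 605, 627, 722 and 639 in Nestin;BrafKE/+ replicates 1 to 4 and 863, 792, 798, 740.2 and 811 in Braf+/+ replicates 1 to 5. Nestin;BrafKE/+ replicate 3 was the nearest to the controls, and the log2 fold change was -0.31 (SE 0.0794, limma adjusted p = 0.069). Oprd1, the delta opioid receptor, was measured at 145, 185, 175 and 170.5 in Nestin;BrafKE/+ replicates 1 to 4 and 250.4, 235, 222, 197 and 221 in Braf+/+ replicates 1 to 5. The groups lay close without overlap, and the log2 fold change was -0.42 (SE 0.124, limma adjusted p = 0.104). Penk, the enkephalin precursor, had values from 306 to 401 in Nestin;BrafKE/+ and 392.3 to 459 in Braf+/+, which overlap, and a log2 fold change of -0.28 (SE 0.11, limma adjusted p = 0.2). The receptor of the dynorphins, Oprk1, was low, at 25.8 to 42.9 in Nestin;BrafKE/+ and 20.9 to 33.1 in Braf+/+, with a 95% interval of -0.28 to 0.92 that takes in both directions. Oprm1, the mu opioid receptor, was the lowest of the tested members per kilobase and had a log2 fold change of 0.10 (95% interval -0.61 to 0.81).

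Ntsr1, a neurotensin receptor, was measured at 46.2, 59.6, 54.9 and 42.9 in Nestin;BrafKE/+ replicates 1 to 4 and 70.5, 110.0, 84.6, 66.3 and 99.1 in Braf+/+ replicates 1 to 5. The control libraries were spread widely, and all of them were above the Nestin;BrafKE/+ libraries. Its log2 fold change, -0.73 (SE 0.215, limma adjusted p = 0.101), was the largest of those that did not pass. Neurotensin itself, Nts, overlapped between groups, at 69.8 to 129.8 in Nestin;BrafKE/+ and 61 to 155 in Braf+/+. Of the somatostatin receptors, Sstr3, a receptor of neuronal primary cilia, was measured at 753, 833, 845 and 798 in Nestin;BrafKE/+ replicates 1 to 4 and 715, 669, 677, 622 and 679.6 in Braf+/+ replicates 1 to 5. It was higher in every Nestin;BrafKE/+ library, with a log2 fold change of 0.26 (SE 0.0718, limma adjusted p = 0.0815). Sstr1, Sstr2 and Sstr4 had overlapping groups and log2 fold changes of 0.26, -0.30 and 0.21.

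**Figure D4:**
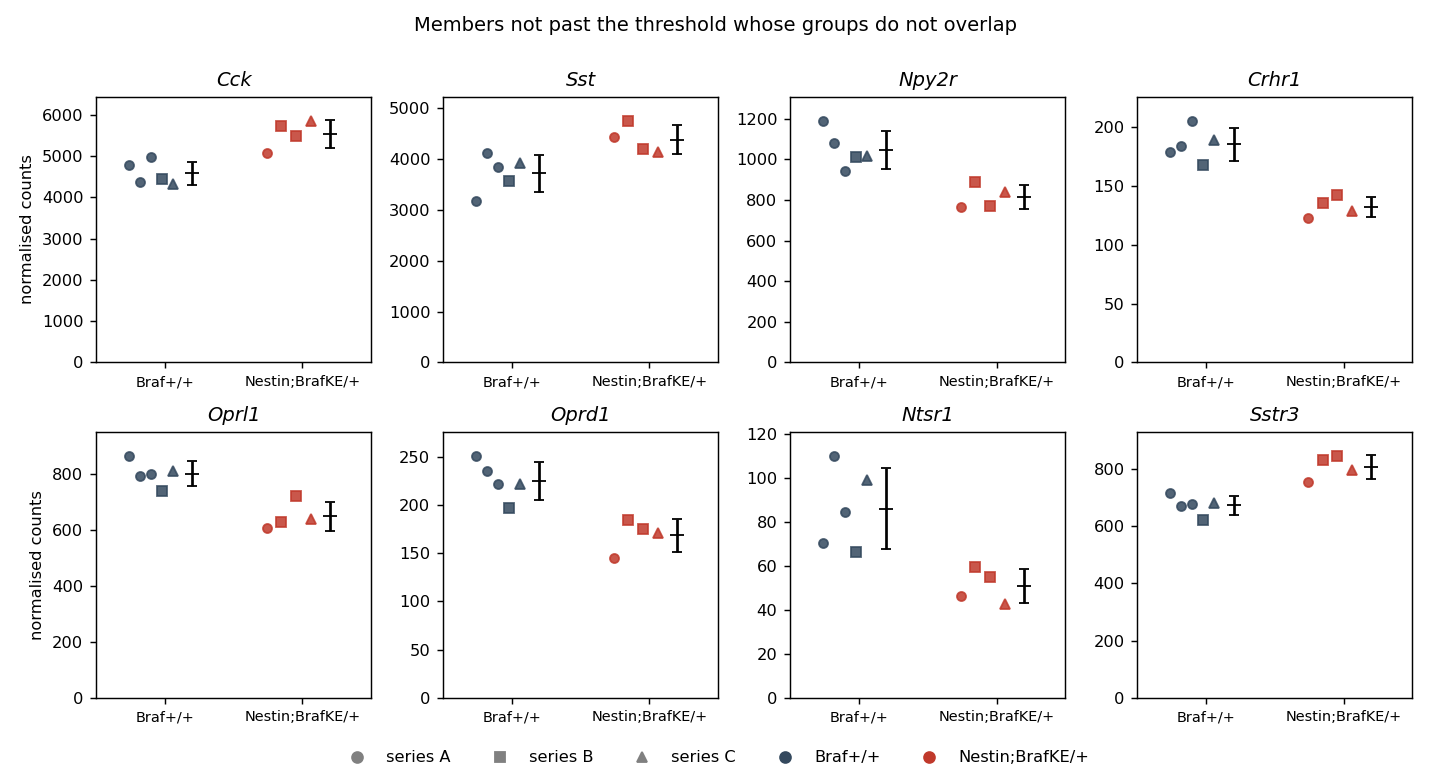
Normalised counts in each library for the 8 genes whose groups do not overlap but whose adjusted p was above 0.05, with a linear axis from 0 per gene. Colour, marker shape and black bars (mean ± SD) are genotype, name series and group. Cck, Sst and Sstr3 are higher and Npy2r, Crhr1, Oprl1, Oprd1 and Ntsr1 lower in Nestin;BrafKE/+, and the gap between groups is narrowest beside the spread for Sst.

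The remaining 23 tested genes had overlapping groups and adjusted p from 0.200 to 0.987, 14 with positive and 9 with negative log2 fold changes, none above 0.38 in size. The tightest was Adcyap1r1, at 3782 ± 209.7 in the Nestin;BrafKE/+ group (SD, n = 4) against 3887 ± 148 in the Braf+/+ group (SD, n = 5), with a 95% interval of -0.17 to 0.08, so that a change of 0.2 on the log2 scale lies outside the interval. Vip, the peptide of a disinhibitory interneuron class, was at 255 ± 17.9 in the Nestin;BrafKE/+ group (SD, n = 4) against 285 ± 24 in the Braf+/+ group (SD, n = 5) with a log2 fold change of -0.16 (95% interval -0.39 to 0.08). Its receptors Vipr1 and Vipr2 had log2 fold changes of 0.17 and 0.27, and PACAP itself, Adcyap1, had 0.23 (95% interval -0.20 to 0.66). For the tachykinin system, Tac1, the precursor of substance P, had 0.15, Tac2, that of neurokinin B, -0.02, and the receptors Tacr1 and Tacr3 0.37 and -0.07. Tacr1 overlaps a predicted gene on the same strand, which leaves some of its reads uncertain. The cholecystokinin receptor Cckbr had 0.09 (95% interval -0.30 to 0.47) and the oxytocin receptor Oxtr 0.10 (95% interval -0.20 to 0.40). Cartpt, the CART peptide, had the widest 95% interval of the peptides, -1.17 to 0.41. For 8 of these 23 genes the mean was under 50 normalised counts, and their intervals are correspondingly wide.

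The interneuron peptides were set beside the other markers of GABAergic interneurons, because Npy, Cort and Crhbp are made in these cells. None of 21 markers that are not members passed the test in limma, and their log2 fold changes had a median of 0.06. An unadjusted limma p under 0.05 was found for 5 (23.8%), against 18.5% of all genes. Groups did not overlap for 3 (14.3%), all lower in Nestin;BrafKE/+, against 15.7% of all genes. The pan-interneuron enzymes Gad1 and Gad2 had log2 fold changes of 0.04 and 0.18, and the regulator Lhx6, of the interneurons that include the somatostatin class, had 0.05 (95% interval -0.12 to 0.22). The summed level of the list overlapped, from 34048 to 37180 in Nestin;BrafKE/+ and from 33248 to 36881 in Braf+/+. The 5 with an unadjusted p under 0.05 were Slc32a1 and Ndnf, with positive values of 0.32 and 0.39, and Nos1, Cnr1 and Erbb4, with -0.24, -0.20 and -0.27.

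Neighbouring tissue was checked for the peptides it could bring. The summed thalamus markers ranged from 1634 to 2473 in Nestin;BrafKE/+ and from 1389 to 2038 in Braf+/+, and those of the medial habenula from 852 to 932 and from 791 to 988, and no gene of either list passed. The habenula list includes Tac1 and Tac2, which are members of the set. Striatal markers ranged from 1439 to 1911 and from 1846 to 2313, where Penk and Tac1 are themselves listed. Of these 8 markers, 5 had positive and 3 negative log2 fold changes, with a median of 0.07. Only 1 of 8 passed, where 2.88% of all genes passed. This was Ppp1r1b, which fell by 0.56 on the log2 scale (adjusted p = 0.0402). Ppp1r1b passed in 2 of the 9 fits that leave out 1 library, those without Nestin;BrafKE/+ replicate 2 and without Braf+/+ replicate 1, and without Braf+/+ replicate 4 it stood at -0.36 (adjusted p = 0.221). The receptors Drd1 and Drd2 of that list had log2 fold changes of -0.27 and 0.61, neither past the threshold. All 7 choroid plexus markers had negative log2 fold changes with a median of -1.59, and none passed in limma. An unadjusted limma p under 0.05 was found for 1 (14.3%, against 18.5% of all genes). Without Braf+/+ replicate 2, the highest in these markers, the same 6 members passed, and without Braf+/+ replicate 4 those that passed were Npy, Grp, Prokr2 and Pdyn.

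Beyond the set, 121 further genes of the peptide pathway were listed by role and 72 were tested. Of these, 10 passed (13.9%, against 2.88% of all genes), 7 higher and 3 lower. The enzymes and proteins that make peptides held 6 of the 10 among 20 tested (30.0%). The main convertases of dense-core vesicles fell. Pcsk1 was measured at 467, 365, 452 and 429 in Nestin;BrafKE/+ replicates 1 to 4 and 577, 721, 580.4, 709 and 639.5 in Braf+/+ replicates 1 to 5, and Pcsk2 at 3804, 3871, 3845 and 4084 in Nestin;BrafKE/+ replicates 1 to 4 and 5531, 4836, 5028, 5198 and 4859 in Braf+/+ replicates 1 to 5. Neither pair of groups overlapped, and the log2 fold changes were -0.59 (SE 0.11, limma adjusted p = 0.0202) and -0.38 (SE 0.0566, limma adjusted p = 0.00756). Pcsk5, a convertase with broader substrates, also fell, with a log2 fold change of -0.44 (SE 0.0957, limma adjusted p = 0.0396). Carboxypeptidase E, Cpe, which trims the cut ends, was higher in all Nestin;BrafKE/+ libraries, at 71166 to 89915 in Nestin;BrafKE/+ and 53688 to 65332 in Braf+/+, with a log2 fold change of 0.45 (SE 0.0835, limma adjusted p = 0.0195). Vgf, a secreted precursor induced by neurotrophins, was measured at 5553, 4965, 5388 and 4548 in Nestin;BrafKE/+ replicates 1 to 4 and 2891, 2439, 3119, 2804 and 3237 in Braf+/+ replicates 1 to 5, had no overlap and a log2 fold change of 0.82 (SE 0.0947, limma adjusted p = 0.00261), and passed in all 9 fits that leave out 1 library. Pcsk6 rose by 0.61 (adjusted p = 0.00425), but predicted genes overlap it on the same strand. The granins Chga, Chgb and Scg2 had log2 fold changes of 0.06, -0.06 and 0.07, none past the threshold.

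Of 25 other receptors, 3 passed, all higher, where 2.88% of all genes passed. Ghsr, the ghrelin receptor, was measured at 42.2, 55.6, 75.9 and 45.9 in Nestin;BrafKE/+ replicates 1 to 4 and 15.9, 19, 13.9, 10 and 17 in Braf+/+ replicates 1 to 5. The groups did not overlap at low level, and the log2 fold change was 1.78 (SE 0.292, limma adjusted p = 0.0117). Hcrtr1, an orexin receptor, was measured at 73.3, 60.6, 64.9 and 69.8 in Nestin;BrafKE/+ replicates 1 to 4 and 17.9, 36, 33.8, 33.1 and 28 in Braf+/+ replicates 1 to 5. Braf+/+ replicate 1 was the lowest control, all Nestin;BrafKE/+ libraries were above all controls, and the log2 fold change was 1.18 (SE 0.251, limma adjusted p = 0.0346). Ntsr2, a neurotensin receptor that in the brain is abundant in astrocytes, was measured at 2857, 3038, 2838 and 2695 in Nestin;BrafKE/+ replicates 1 to 4 and 2297, 2217, 2285, 2146 and 2405 in Braf+/+ replicates 1 to 5. It was higher in every Nestin;BrafKE/+ library, with a log2 fold change of 0.33 (SE 0.0579, limma adjusted p = 0.0161), where Ntsr1 of the same family had a negative value. The astrocyte markers moved alongside, with 3 of 10 past the threshold (30.0%, against 2.88% of all genes). These were Gfap at 0.68, Aldoc at 0.35 and S100b at 0.36. The summed level of the 10 markers was 116045 to 129898 in Nestin;BrafKE/+ and 108449 to 122329 in Braf+/+. Their part in the Ntsr2 result was not tested. Gfap and Aldoc each passed in 7 of the 9 fits that leave out 1 library and S100b in 4, with the highest adjusted p of S100b, 0.158, without Braf+/+ replicate 4. The receptor of gastrin-releasing peptide, Grpr, was low, with a mean of 16.3 and a log2 fold change of 0.03 (95% interval -0.63 to 0.68).

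Of 11 other peptides, none passed the test in limma, and 1 had an unadjusted p under 0.05 (9.09%, against 18.5% of all genes). This was Pnoc, the precursor of nociceptin and ligand of Oprl1, measured at 268, 207, 264 and 195 in Nestin;BrafKE/+ replicates 1 to 4 and 124, 156, 142, 146 and 175 in Braf+/+ replicates 1 to 5. All Nestin;BrafKE/+ libraries were above all controls, and the log2 fold change was 0.64 (SE 0.154, limma adjusted p = 0.0535). Among 16 genes listed under peptide degradation, 5 had positive and 11 negative log2 fold changes, with a median of -0.08. Only Ecel1 passed (6.25%, against 2.88% of all genes), and it rose. It was measured at 182, 87.4, 193 and 95.7 in Nestin;BrafKE/+ replicates 1 to 4 and 38.8, 58, 37.8, 50.2 and 68.1 in Braf+/+ replicates 1 to 5, with 2 Nestin;BrafKE/+ libraries far above the other 2, and a log2 fold change of 1.39 (SE 0.308, limma adjusted p = 0.0416). The related Ece1 and Ece2, which cleave endothelin precursors among other peptides, had log2 fold changes of 0.55 (adjusted p = 0.0765) and 0.27 (adjusted p = 0.0786). Without Nestin;BrafKE/+ replicate 1 or without Braf+/+ replicate 4 the count of these further genes past the threshold was 2 in place of 10. In those fits 0.259% and 0.599% of all genes passed. Over the 9 fits that leave out 1 library, Pcsk5 passed in 1, Hcrtr1 and Ecel1 in 3, Pcsk1 in 5, Cpe in 6, Pcsk2, Ghsr and Ntsr2 in 7, Pcsk6 in 8 and Vgf in 9.

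**Figure D5:**
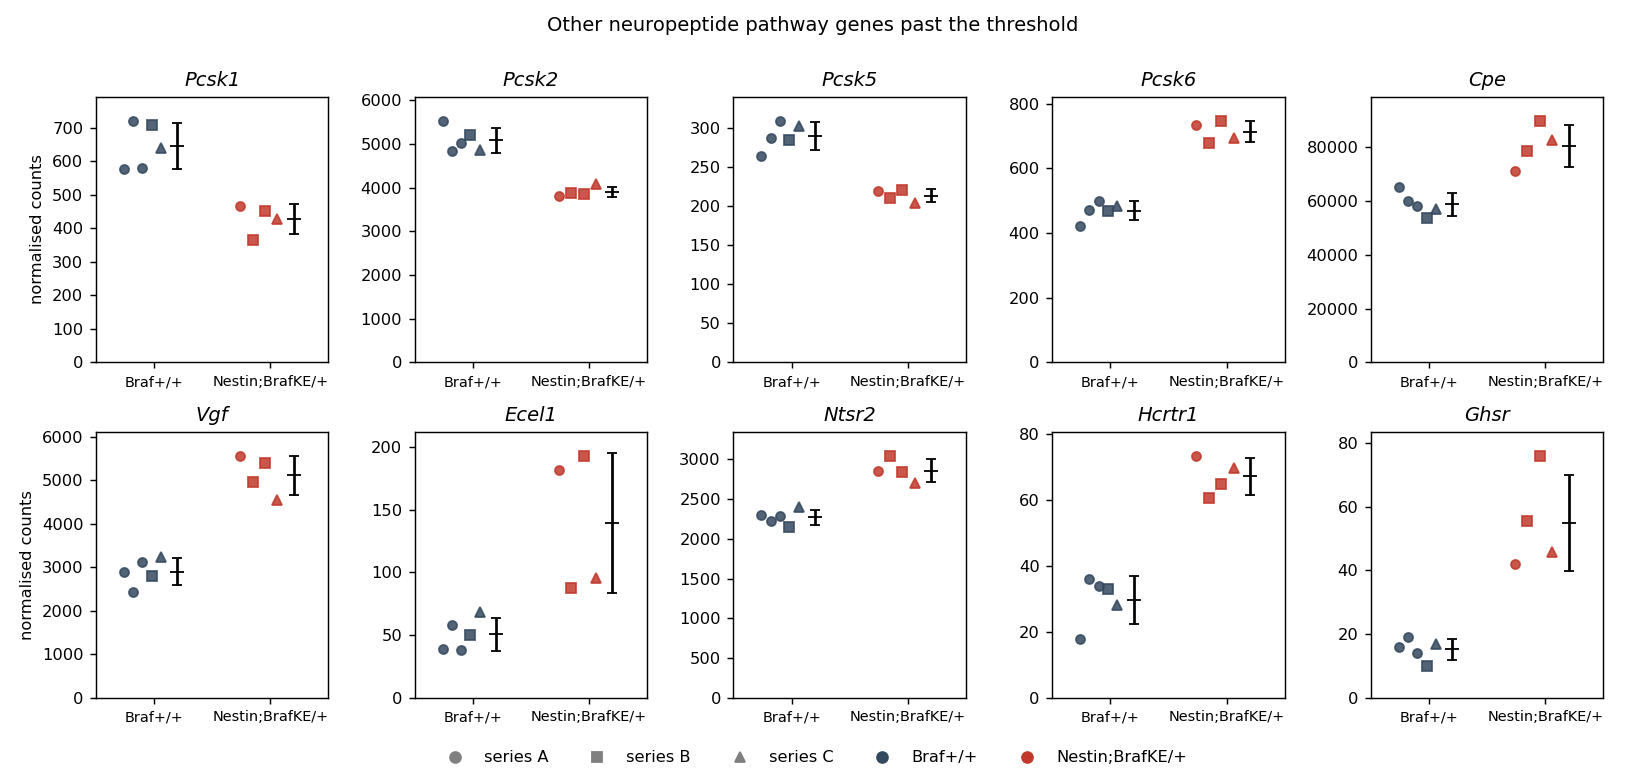
Normalised counts in each library for the 10 further genes of the peptide pathway that passed the test, with a linear axis from 0 per gene. Colour is the genotype, marker shape the name series, and the black bar the mean ± SD of the group. Pcsk1, Pcsk2 and Pcsk5 are lower and the other 7 higher in Nestin;BrafKE/+, and Ecel1 has the widest spread among Nestin;BrafKE/+ libraries.

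Of 12 immediate early genes, which follow recent neuronal activity, 9 had a positive log2 fold change, and their summed level was higher in every Nestin;BrafKE/+ library, at 7862 to 10066 against 6111 to 7518 in Braf+/+. A sum is weighted to the most abundant genes. The median log2 fold change of the 12 was 0.08 and their median absolute change 0.10, against 0.12 over all genes. The part of these genes in the peptide results was not tested. Of the 12, 3 passed (25.0%, against 2.88% of all genes), with Arc at 0.77, Nptx2 at 0.53 and Fos at -0.67 on the log2 scale. Egr1, Npas4 and Nr4a1 had 0.30, -0.08 and 0.09 without passing. Over the 9 fits that leave out 1 library, Arc passed in 7, Nptx2 in 6 and Fos in 1, that without Nestin;BrafKE/+ replicate 2. The counts above depend on how the name series enter the fit. Without a series term 14 members passed, which are the 14 with no overlap, against 14% of all genes. On values already adjusted for batches, that fit understates the error. With the 4 name prefixes in place of the 3 series 4 members passed (Npy, Grp, Prokr2 and Pdyn), against 1.02% of all genes.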

How the data were processed

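Hippocampal RNA was made into stranded mRNA libraries, 1 for each mouse. Reads were trimmed by the authors (Trim Galore), mapped with STAR on GRCm39, quantified with Salmon and adjusted for unnamed batches, and the values carry the scaling of DESeq2. The deposited table holds a signal per gene and library in normalised counts, made by the authors. In every library 100% of values were whole multiples of 1 step (tolerance 0.01), but mt-Co1 had the same whole number, 491938, in all 9, so the multiples are not reads, the depth is unknown and no count model was used.

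Groups and replicate numbers came from the labels. Of 18275 genes, the 16196 whose mean reached 10 entered the limma fit (version 3.58.1, R 4.3.3, lmFit and eBayes with a trend) on log2(value + 1), which understates changes of low genes, with terms for genotype and name series. Two-sided p-values were adjusted over all genes tested by Benjamini-Hochberg, with a threshold of 0.05. Single genes were also given exact permutation tests. The scripts were tested on simulated data. The alternatives were other pseudocounts, filters, scalings, series terms, weights and eBayes settings, a replicate block, and leaving out each library.

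The members, lists and tests were chosen with earlier results of these data known. Every tested member could be named. Values in every library are given for members that passed, and for those with an unadjusted p under 0.05 and no overlap. Of the further lists, genes that passed, Pnoc, Ntsr2 and the 3 largest changes per list with a mean of at least 50 could be named, and other genes named were chosen after their values were seen. Coordinates are from Gencode vM39 on GRCm39, where 18179 of the gene IDs were found. Whether counting used strand is not given in the sources used here. Promoters are from RefSeq. Python 3.11.15, pandas 2.3.3 and matplotlib 3.10.9 were used.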

Additional observations from a re-analysis of the deposited data

How the results depend on the processing

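The members called numbered 6 with pseudocounts of 0.5 and 8, no filter, equal totals, quantile normalisation and array quality weights, and in each the same 6 genes passed. With a minimum mean of 50 the count was 9 (3 lower, 3 receptors), with robust eBayes 8 (2 lower, 2 receptors), without the series term 14 (8 higher, 6 lower, 7 receptors, and 21 further pathway genes), and with 4 name prefixes 4 (3 higher, and 5 further pathway genes). In these settings 3.64%, 3.07%, 14% and 1.02% of all genes passed. The fit without the series term understates the error. The replicate number as a block, used although the labels say nothing of pairing, gave 13 (8 higher, 5 lower, 6 receptors) and 1402 genes in all. Deviations of same-numbered libraries correlated at -0.39, -0.08, 0.07 and 0.41, and 1 of 4 Nestin;BrafKE/+ libraries correlated best with its own number, so the numbers were not taken to pair libraries. Leaving out 1 library gave 2 to 8 members (2 to 6 higher, 0 to 2 lower, 2 to 5 peptides, 0 to 2 receptors) and 2 to 9 further genes, with the lowest counts without Nestin;BrafKE/+ replicate 1, when 42 of all genes passed. Over these fits the share of all genes that passed ran from 0.259% to 2.29%.

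Of 732 log2 fold changes refitted, 669 kept their sign and side of the threshold, 22 newly passed, 10 no longer passed and 31 changed sign, all of the last in 12 members that did not pass. With 4 name prefixes, Tac2 was 0.091, Crh -0.12, Nts -0.21 and Npy5r 0.027. Under the replicate block, Tac2 was 0.0045 and Npy1r -0.011. Crh was -0.00047 after quantile normalisation and -0.0023 with array weights. Leaving out 1 library moved Tac2 from -0.338 to 0.234, Crh from -0.311 to 0.194, Nts from -0.16 to 0.478, Cartpt from -0.808 to 0.0752, Npy1r from -0.118 to 0.21, Npy5r from -0.215 to 0.204, Cckbr from -0.124 to 0.38, Vipr2 from -0.00761 to 0.533, Oprm1 from -0.299 to 0.294, Tacr1 from -0.0831 to 0.614, Tacr3 from -0.384 to 0.173 and Oxtr from -0.000591 to 0.195. The cause of these changes was not tested. The number of reads behind a value is unknown, and below 50 normalised counts only large differences could be detected.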
